A study of Mus musculus with 12 samples.

Results

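The genes described here are the neighbours of Jaml on mouse chromosome 9, read from every array probe placed between 42.5 and 47.5 Mb of that chromosome (mm9 build). Probes named Jaml, Amica1 (its older symbol), Cd3d, Cd3e, Cd3g, Atp5l, Fxyd2 and Mcam were left out by name, 10 probes in all. This left 171 of the 56605 probes on the array, carrying 104 of its 37294 gene or transcript names. The window was set by position and not by the measured values of its probes, but it was chosen with earlier results of these data known. The study hybridised kidney RNA of male mice to one-colour Agilent microarrays, 1 array for each of 3 independent samples in 4 groups. The groups were Jaml knockout (KO) kidneys after sham operation, wild-type (WT) kidneys after sham operation, KO kidneys after ischaemia-reperfusion injury (IRI) and WT kidneys after IRI. All mice had a C57/6J background. The series text gives anaesthesia with pentobarbital sodium at 30 mg/kg, which is taken here to cover all 4 groups. The renal pedicles of both kidneys were clipped to make the injury, with kidneys taken at 24 h. The series text gives 40 minutes of clipping and the treatment protocol gives 30 minutes of ligation. The labels do not say how the knockout allele was made, where its deletion lies or whether the WT mice were littermates.

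Jaml, junctional adhesion molecule-like, is a transmembrane protein of the immunoglobulin superfamily that is known on neutrophils, monocytes and some T cells. Genes that lie close together on a chromosome are inherited together, so neighbours of a targeted locus stay with the allele through many crosses. The stretch around Jaml holds genes of unrelated function: sodium channel subunits (Scn2b, Scn4b), epithelial adhesion proteins (Mpzl2, Mpzl3), the interleukin-10 receptor subunit Il10ra, membrane proteases, housekeeping genes and a cluster of apolipoprotein genes. The question for these probes was whether KO and WT kidneys differed near the targeted locus, in sham and in injured kidneys.

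The sequences shown here belong to the neighbours whose values carry the results below. The first set holds the 250 bases before the transcription start of the apolipoprotein genes Apoa1 (higher after IRI in KO kidneys) and Apoa4 (higher after IRI in KO and in WT kidneys), and of Usp2, which was lower after IRI in WT kidneys. They come from RefSeq's GRCm38.p6 build, all on the plus strand: Apoa1 from chr9:46228380-46228629, Apoa4 from chr9:46240594-46240843 and Usp2 from chr9:44084670-44084919. Capitals mark the letters CAAAGTNCA on either strand, where N is any base, which form part of the pattern that the liver and kidney factor HNF4A is known to bind.
Apoa1 promoter: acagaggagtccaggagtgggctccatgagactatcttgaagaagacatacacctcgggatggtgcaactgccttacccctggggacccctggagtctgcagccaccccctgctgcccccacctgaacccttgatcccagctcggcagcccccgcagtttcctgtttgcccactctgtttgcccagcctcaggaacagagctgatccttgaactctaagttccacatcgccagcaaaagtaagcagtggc
Apoa4 promoter: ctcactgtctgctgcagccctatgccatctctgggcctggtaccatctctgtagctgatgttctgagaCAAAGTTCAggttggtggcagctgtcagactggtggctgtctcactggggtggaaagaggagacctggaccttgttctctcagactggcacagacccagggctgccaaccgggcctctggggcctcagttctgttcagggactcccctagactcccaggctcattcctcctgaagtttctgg
Usp2 promoter: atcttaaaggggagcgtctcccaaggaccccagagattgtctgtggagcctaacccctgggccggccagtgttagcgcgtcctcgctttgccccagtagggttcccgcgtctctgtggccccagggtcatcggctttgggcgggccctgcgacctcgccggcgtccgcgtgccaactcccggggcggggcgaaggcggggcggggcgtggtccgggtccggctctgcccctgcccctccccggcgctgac
The Apoa4 promoter held 1 match, CAAAGTTCA, beginning 182 bases before the start, and the other two held none. CAAAGTNCA stood in 392 of the 32851 promoters of the same length in the RefSeq table, or 1.19%. Among 58 promoters of 46 neighbouring genes it stood in 4 (6.90%), those of Apoa4, D630033O11Rik, Rps25 and Treh. Of these genes only Apoa4 was called between IRI and sham. None of the 3 promoters held TATAAA, the TATA box, searched on both strands and found in 12.4% of all promoters. None held CACGTG, an E-box that circadian clock factors are known to bind, which reads the same on both strands and was found in 6.02% of all promoters. A match is a stretch of letters and not a measured binding site. The second set holds the array probes, each 60 bases long, of non-coding transcripts that stood out in the comparisons. The probe of 2900052N01Rik crosses a splice junction between mm9 positions 46721808 and 46728651 on the plus strand. The probe of an unnamed transcript lies at chr9:46937610-46937669 on the minus strand. The probe of Gm38444 lies at chr9:43903196-43903255 on the minus strand, where Usp2 is transcribed from the plus strand.
2900052N01Rik probe: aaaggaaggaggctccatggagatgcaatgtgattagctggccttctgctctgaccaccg
Unnamed transcript probe: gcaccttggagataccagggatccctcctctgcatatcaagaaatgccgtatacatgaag
Gm38444 probe: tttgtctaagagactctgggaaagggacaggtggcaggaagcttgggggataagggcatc

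Of the 171 neighbour probes, 142 with 86 names entered the fit, having cleared the background flag on 3 arrays or more, and 127 were well above background on all 12. The other 29 did not enter, and 25 of them were above background on no array. Of the genes, 32 had more than 1 probe in the fit, 88 probes together. A level is the log2 processed signal minus the array's 75th percentile of it, so 0 is a bright probe. On this scale the mean level of the kept neighbour probes ran from -7.17 to 7.24. Between 62.9% and 68.1% of all probes were well above background on each array, no spot was saturated, and replicate arrays of a group correlated at 0.964 to 0.995, lowest for WT IRI 1 with WT IRI 2. Every WT array lay on 1 slide and every KO array on another, so slide and genotype cannot be told apart in any KO against WT comparison. IRI against sham was compared within a slide.

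The Jaml probe (chr9:44915486-44915545, plus strand) was read first as the check of the labels. Its levels were -3.54, -2.59 and -3.18 in KO sham kidneys, against -0.26, -0.26 and -0.44 in WT sham kidneys. They were -1.89, -2.70 and -3.0 in KO IRI kidneys, against 0.55, -1.80 and -1.64 in WT IRI kidneys. All KO arrays were below all WT arrays of the same operation, with KO IRI 1 and WT IRI 2 the closest. The log2 fold change was -2.79 ± 0.55 in sham kidneys (SE, limma adjusted p = 0.0175), a call lost without WT sham 1, WT sham 2, KO sham 1 or KO sham 3 (adjusted p up to 0.0802). In IRI kidneys it was -1.57 ± 0.55 (adjusted p = 0.164), which did not pass 0.05, and it was -0.81 without WT IRI 1. Where the probe lies relative to the deletion was not given in the sources used here.

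In sham kidneys, 5 neighbouring genes were called between KO and WT. Both Il10ra probes and the probe of the transcript BC056208, kept through WT arrays only, were lower in KO sham kidneys. Higher were 2 of 4 Ift46 probes, 1 of 2 Nlrx1 probes and the non-coding 2900052N01Rik. That made 7 of 142 probes (4.93%) past an adjusted p of 0.05 in limma, against 6.54% of all 39450 probes tested, with 4 higher, against 3.68% of all probes, and 3 lower, against 2.86%. The share of neighbours called was therefore close to, and below, the share over the whole array. This share and those by distance do not cover the probes left out by name, among them Cd3d, Cd3e and Cd3g. Under quantile normalization and in the authors' deposited table the calls split into 2 higher and 4 lower, and under normexp background correction into 6 higher and 1 lower. The totals were 4.23% of the neighbours under quantile normalization and in the authors' table, against 5.8% and 5.82% of all probes. Under normexp the total was 4.93%, against 6.02%. The median log2 fold change of the neighbours was 0.08, against 0.11 over all probes tested, and the median size was 0.22 against 0.25. The values of the neighbour probes spanned -2.27 to 1.46. Leaving out 1 array moved the count to 0 without KO sham 1 or KO sham 3, where 1.64% and 2.01% of all probes were called. It was 2 or 3 (1.41% or 2.11%) without any other sham array, against 2.66% to 4.26% of all probes. Without WT IRI 1 it was 18 (12.7%), against 13.6% of all probes. In 48 of 142 probes (33.8%) the KO sham and WT sham arrays did not overlap, against 40.1% of all probes.

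In IRI kidneys none of the 142 neighbour probes passed the threshold in limma, against 1.23% of all probes tested. Without WT IRI 2 or KO IRI 1 the count was 3 (2.11%), against 2.39% and 2.16% of all probes. Without KO sham 2 it was 2 (1.41%), against 0.989%. At an unadjusted p under 0.05 there were 35 (24.6%), against 20.8% of all probes. The arrays of KO IRI and WT IRI did not overlap in 35 probes (24.6%), 20 higher and 15 lower in KO, against 20.4% of all probes. The median log2 fold change was 0.07 for the neighbours and 0.03 over all probes. Among the 138 probes well above background on at least 1 array of both groups, the values spanned -1.19 to 1.12. The difference between the genotype effects in IRI and in sham (the interaction) passed for 0 of 142 probes, against 0.038% of all probes. For the interaction 10 probes (7.04%) had an unadjusted p under 0.05, against 9.59% of all probes. The smallest limma adjusted p was 0.375. Without WT sham 3 the interaction count was 1 (0.704%), against 0.152% of all probes.

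Averaged over sham and IRI, the KO minus WT difference passed for 17 of 142 probes (12%) in 15 genes, against 11.8% of all probes. Of these 14 probes were higher in KO and 3 lower, where 7.2% of all probes were higher and 4.64% lower. The lower ones include BC056208, kept through WT arrays only. The higher ones include the unnamed transcript whose probe is printed above, kept through KO arrays only. The count was 10 (7.04%) without WT sham 2, KO sham 1 or KO sham 2, against 7.85%, 6.24% and 9.2% of all probes. Without WT IRI 1 it was 20 (14.1%), against 15.7%. The plot of each probe by its distance from the Jaml probe shows where in the window the sham calls lay.

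**Figure D1:**
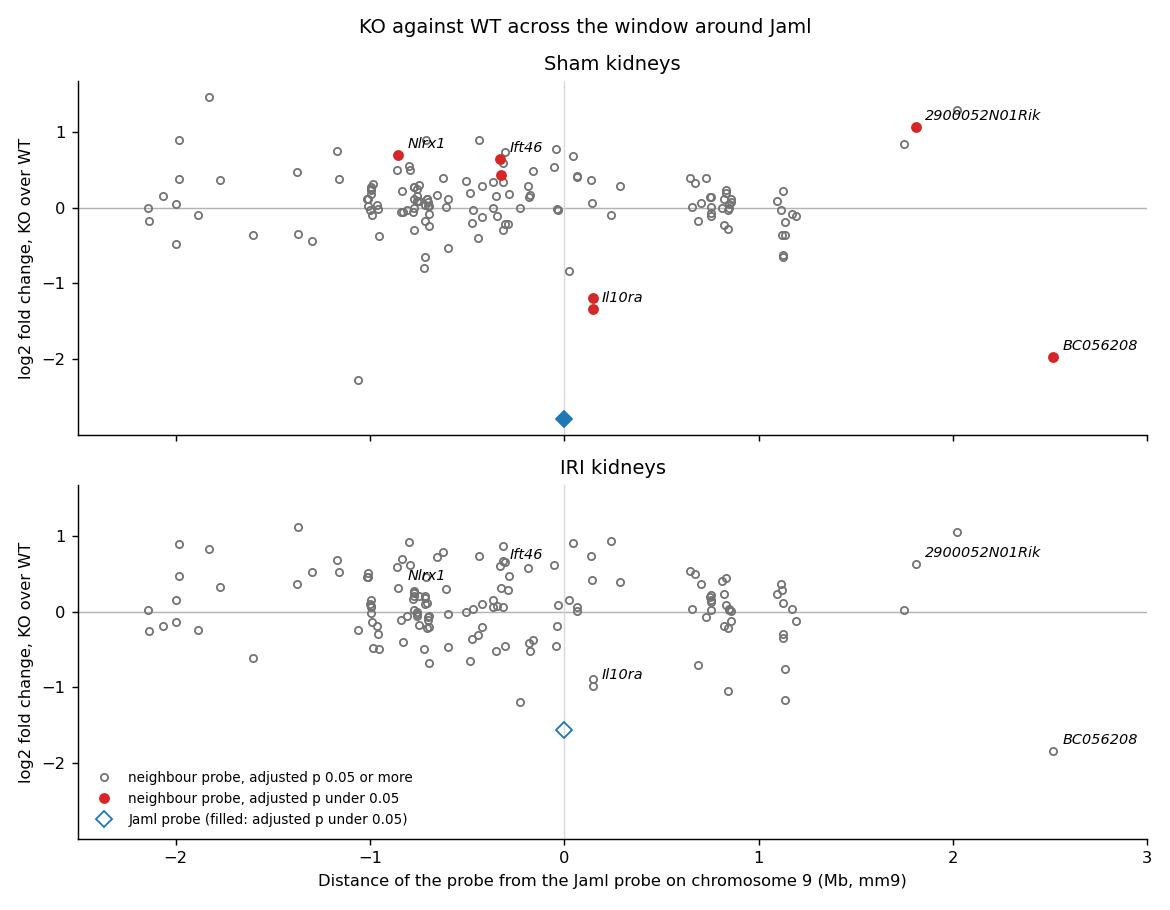
Log2 fold change of KO over WT (vertical axis) for each of the 142 kept neighbour probes against its distance from the Jaml probe in Mb (horizontal axis), in sham kidneys (top) and IRI kidneys (bottom). Filled red points have a limma adjusted p under 0.05, 7 in sham and 0 in IRI, and the diamond is the Jaml probe at -2.79 and -1.57. BC056208 did not clear background on the KO arrays, so its position on the vertical axis is not a measured fold. Nor is that of the unnamed transcript whose probe is printed above, which did not clear background on the WT arrays.

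Distance from Jaml was described in 3 bands. Within 300 kb of the Jaml probe, 2 of 21 probes (9.52%) were called in sham kidneys, both of Il10ra, 0 of 21 in IRI kidneys and 4 of 21 (19%) on the mean. From 300 to 1000 kb, 3 of 87 (3.45%) were called in sham, 0 in IRI and 9 (10.3%) on the mean. Beyond 1000 kb, 2 of 34 (5.88%) were called in sham, 0 in IRI and 4 (11.8%) on the mean. These include BC056208, kept through WT arrays only. On the mean they also include the unnamed transcript whose probe is printed above, kept through KO arrays only. The rest of chromosome 9 had 6.04% of 1971 probes called in sham, 0.66% in IRI and 9.74% on the mean. Other chromosomes had 6.57%, 1.27% and 11.9% of 37327 probes. The nearest band thus had the largest share in sham and on the mean, resting on 2 and 4 probes, and its 2 sham calls are of 1 gene.

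**Figure D2:**
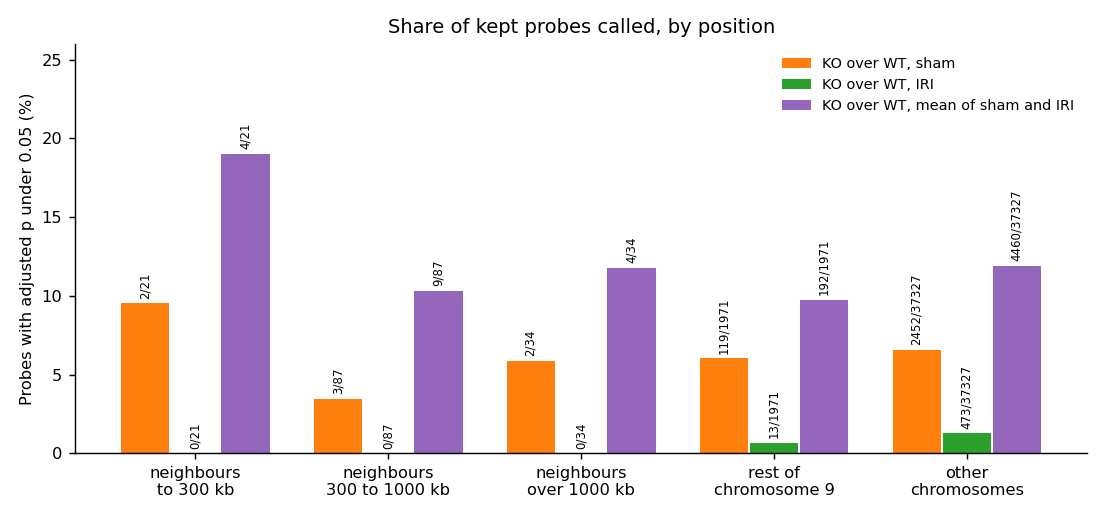
Share of kept probes with a limma adjusted p under 0.05 for KO over WT (vertical axis, percent, from 0) by position (horizontal axis), for sham, IRI and the mean of both, with the numbers of probes above each bar. The band up to 300 kb stands at 9.52%, 0% and 19%, and other chromosomes at 6.57%, 1.27% and 11.9%.

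Il10ra, the ligand-binding subunit of the interleukin-10 receptor on leukocytes, was the only gene within 300 kb called in sham kidneys. Its brighter probe (chr9:45061922-45061981, minus strand, 146.4 kb from the Jaml probe) read -1.78, -0.85 and -1.90 in KO sham kidneys, against -0.35, -0.13 and -0.03 in WT sham kidneys. It read -1.88, -2.05 and -2.03 in KO IRI kidneys, against -0.88, -1.21 and -1.22 in WT IRI kidneys. KO and WT arrays did not overlap within either operation. The log2 fold change was -1.34 ± 0.24 in sham (SE, limma adjusted p = 0.0124), -0.88 ± 0.24 in IRI (adjusted p = 0.108) and -1.11 ± 0.17 on the mean (adjusted p = 0.00404). The dimmer probe, 147.2 kb from Jaml, read -5.04, -4.17 and -4.93 in KO sham kidneys, against -3.74, -3.63 and -3.20 in WT sham kidneys. In IRI it read -5.36, -5.47 and -5.32 in KO, against -4.08, -4.55 and -4.58 in WT. Its log2 fold changes were -1.19 in sham (adjusted p = 0.0195), -0.98 in IRI (adjusted p = 0.0842) and -1.08 on the mean (adjusted p = 0.00433), so both probes gave nearly the same difference. On the mean, both calls held whichever of the 12 arrays was left out. In sham the brighter probe's call was lost without KO sham 1 or KO sham 3, where its adjusted p reached 0.0629. The dimmer probe's sham call was lost without WT sham 2, WT sham 3, KO sham 1 or KO sham 3 (adjusted p up to 0.0883). Under normexp background correction the dimmer probe gave -0.39 in sham (adjusted p = 0.127), which did not pass, and -0.35 on the mean (adjusted p = 0.0468).

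Leukocyte markers moved in the same comparison. Of 10 T and NK cell markers, 6 were lower in KO sham kidneys and none higher (median log2 fold change -2.83). Their mean level per array, centred on each gene's mean over the arrays, was -0.68 to 0.36 in KO sham kidneys and 0.58 to 3.38 in WT sham kidneys. Of 4 interferon response genes all 4 were lower (median -3.36), of 3 neutrophil genes 2 were lower, and of 4 macrophage genes 1 was lower. Of 2 measured B cell genes 0 were called in sham (median 0.93). In IRI kidneys 0 of the 10 T and NK markers and 0 of the 4 macrophage genes were called between KO and WT. Of the interferon response genes 2 of 4 were lower in KO IRI kidneys, Irf7 at -2.97 and Isg15 at -2.02 (median of the 4 -2.28), and of the neutrophil genes 1 of 3 was, Retnlg at -3.49. Fewer cells of a type and less RNA per cell cannot be told apart in whole-kidney RNA. The part of leukocyte content in the Il10ra difference was not tested.

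Ift46, a component of the intraflagellar transport machinery that builds cilia, was higher in KO sham kidneys at 2 of its 4 probes. The brighter of these, 323.1 kb from the Jaml probe, read 0.12, 0.24 and 0.14 in KO sham kidneys, against -0.22, -0.36 and -0.22 in WT sham kidneys. Its log2 fold change was 0.43 ± 0.11 in sham (SE, limma adjusted p = 0.0482), 0.32 in IRI (adjusted p = 0.166) and 0.37 ± 0.08 on the mean (adjusted p = 0.0154). The second, 328.9 kb away, read -2.90, -2.89 and -2.79 in KO sham kidneys, against -3.68, -3.33 and -3.49 in WT sham kidneys. Its values were 0.64 ± 0.17 in sham (adjusted p = 0.0491), 0.60 in IRI (adjusted p = 0.11) and 0.62 ± 0.12 on the mean (adjusted p = 0.00978). The arrays of the 2 genotypes did not overlap at either probe in sham or in IRI. The remaining probes gave 0.35 (adjusted p = 0.132) and -0.29 (adjusted p = 0.798) in sham, so the 4 probes did not all point the same way. Both sham calls lay just under the threshold. They were lost in 11 and 9 of 12 fits with 1 array left out, among them every fit without a sham array (adjusted p up to 0.157 and 0.166), and both were lost with no filter on dim probes. The second was also lost under normexp, under quantile normalization and in the authors' deposited table (adjusted p up to 0.108). Both calls on the mean held in all 12 fits with 1 array left out, and the second fell to 0.37 under normexp (adjusted p = 0.0237).

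Nlrx1, a NOD-like receptor family member located at mitochondria, was higher in KO sham kidneys at 1 of 2 probes. That probe read 0.04, 0.30 and 0.11 in KO sham kidneys, against -0.64, -0.56 and -0.42 in WT sham kidneys. In IRI it read 0.27, 0.27 and -0.13 in KO, against 0.00, -0.41 and -0.15 in WT, and the groups overlapped. The fit put the log2 fold change at 0.69 ± 0.16 in sham (SE, limma adjusted p = 0.0295), 0.32 in IRI (adjusted p = 0.27) and 0.51 ± 0.11 on the mean (adjusted p = 0.0173). The other probe gave -0.05 in sham (adjusted p = 0.891). The sham call was lost without any 1 of the 6 sham arrays, with adjusted p up to 0.105.

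The non-coding 2900052N01Rik, whose probe sequence is given above, lies 1810 kb from the Jaml probe. Its levels were -3.63, -3.42 and -3.76 in KO sham kidneys, against -4.61, -4.66 and -4.72 in WT sham kidneys. They were -4.88, -4.03 and -4.09 in KO IRI kidneys, against -4.59, -5.28 and -5.03 in WT IRI kidneys. The sham groups did not overlap, and the IRI groups overlapped. This was a log2 fold change of 1.06 ± 0.24 in sham (SE, limma adjusted p = 0.0289), 0.63 in IRI (adjusted p = 0.185) and 0.85 ± 0.17 on the mean (adjusted p = 0.0117). Leaving out any 1 of the 6 sham arrays took the sham call to an adjusted p of up to 0.097, and the call on the mean held in all 12 fits. The sham call was also lost under quantile normalization (adjusted p = 0.0596) and in the authors' deposited table (adjusted p = 0.0592). Under normexp the values were 0.54 in sham (adjusted p = 0.0492) and 0.36 on the mean (adjusted p = 0.0446).

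BC056208, 2516 kb from the Jaml probe and the dimmest kept neighbour, read -7.81, -7.69 and -8.28 in KO sham kidneys, against -5.48, -6.94 and -5.43 in WT sham kidneys. After IRI the values were -8.22, -8.36 and -8.39 in KO, against -5.59, -7.17 and -6.70 in WT. No KO array cleared the background flag for it, against 2 WT sham arrays and 1 WT IRI array, so no fold is given. BC056208 thus entered the fit through WT arrays only, so its p-values and lack of overlap do not by themselves show a lower level in KO. The limma adjusted p was 0.0305 in sham, 0.0817 in IRI and 0.00544 on the mean, and the KO and WT arrays did not overlap in either operation. The sham call was lost without WT sham 1, WT sham 3 or any 1 KO sham array, with adjusted p up to 0.112. Under normexp both calls were lost, with adjusted p of 0.83 in sham and 0.44 on the mean.

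**Figure D3:**
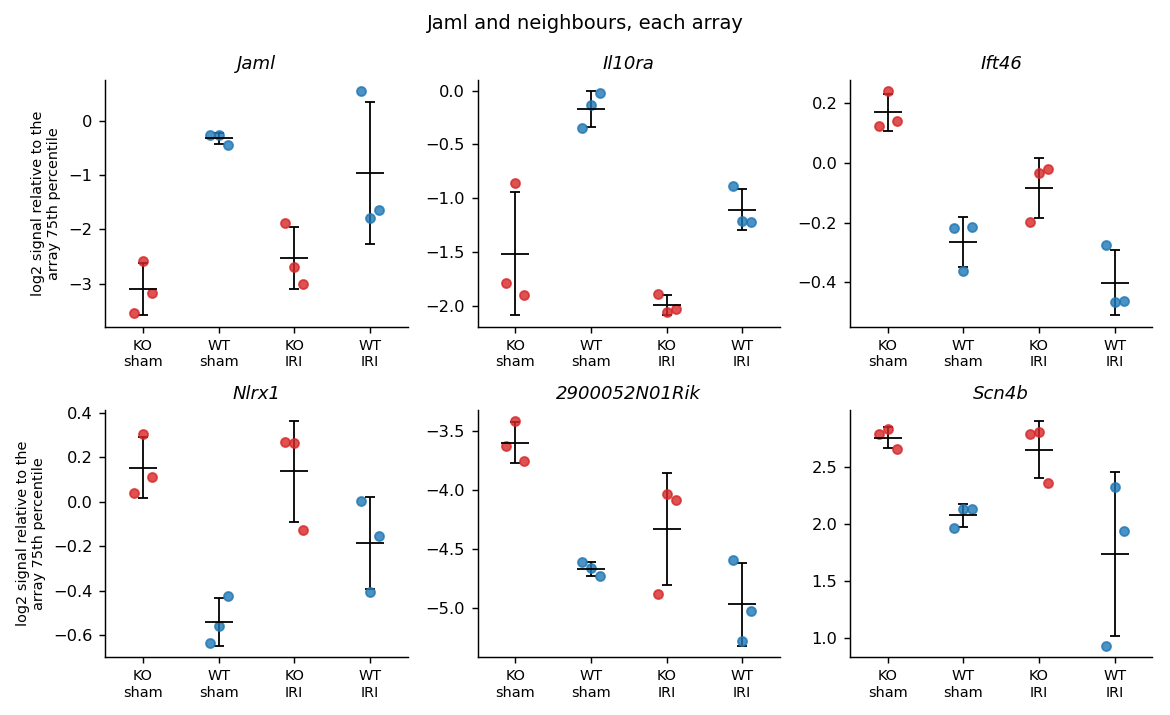
Level of the Jaml probe and of 5 neighbours on each array (vertical axis, log2 signal relative to the array's 75th percentile) in KO sham, WT sham, KO IRI and WT IRI kidneys (horizontal axis). Points are arrays, red for KO and blue for WT, and bars are the mean ± SD of 3. Il10ra separated the genotypes in both operations, and Nlrx1 and 2900052N01Rik separated them in sham kidneys but not in IRI kidneys.

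10 further neighbours were called on the mean of sham and IRI and not in either operation alone, all higher in KO. Scn4b, an auxiliary beta subunit of voltage-gated sodium channels 46.56 kb from the Jaml probe, read 2.79, 2.83 and 2.65 in KO sham kidneys, against 1.96, 2.13 and 2.13 in WT sham kidneys. In IRI it read 2.79, 2.80 and 2.36 in KO, against 0.94, 2.33 and 1.94 in WT. The lowest value belonged to WT IRI 1, and no KO array overlapped with the WT arrays of its operation. Its mean log2 fold change was 0.80 ± 0.21 (SE, limma adjusted p = 0.0333). Mpzl2, an immunoglobulin-domain adhesion protein of epithelia 53.5 kb on the other side, read 2.19, 2.02 and 2.26 in KO sham kidneys, against 1.66, 1.53 and 1.67 in WT sham kidneys. After IRI it read 3.21, 3.17 and 2.62 in KO, against 1.93, 2.51 and 2.70 in WT, where the groups overlapped. Its mean log2 fold change was 0.58 ± 0.15 (adjusted p = 0.0357). Both calls were lost in 8 of 12 fits with 1 array left out, among them every fit without a sham array, with adjusted p up to 0.0796 for Scn4b and 0.0864 for Mpzl2. The Mpzl2 call was also lost with no filter on dim probes (adjusted p = 0.0533).

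Ttc36, which encodes a tetratricopeptide repeat protein and lies 304.6 kb from the Jaml probe, read 5.03, 4.82 and 4.95 in KO sham kidneys, against 4.24, 4.39 and 3.98 in WT sham kidneys. In IRI it read 3.38, 3.50 and 3.09 in KO, against 2.78, 2.97 and 2.24 in WT. The KO arrays were above the WT arrays in both operations. The log2 fold change was 0.74 in sham (limma adjusted p = 0.0539), 0.66 in IRI (adjusted p = 0.126) and 0.70 ± 0.14 on the mean (adjusted p = 0.0123), and the last call held in all 12 fits with 1 array left out. C2cd2l, a lipid transfer protein of contacts between the endoplasmic reticulum and the plasma membrane, had 1 probe called at 0.56 (adjusted p = 0.0128) and a brighter one at 0.73 (adjusted p = 0.0843). At the called probe KO sham kidneys read -0.80, -0.87 and -0.94, against -1.40, -1.43 and -1.29 in WT sham kidneys. Its call held in all 12 such fits. In the same sham comparison 2 of 6 proximal tubule markers (Slc5a2 and Slc6a19) and 2 of 3 liver markers (Alb and Ttr) were higher in KO. The other liver marker, Apob, gave -0.44 (limma adjusted p = 0.361). The part of tubule or liver transcripts in the differences of Ttc36 and C2cd2l was not tested.

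The remaining calls on the mean were smaller or rested on dim probes. Cep164, a protein of the distal appendages of centrioles, was called at 1 of 3 kept probes (0.42, limma adjusted p = 0.0245), with the others at 0.02 and 0.22. Slc37a4, the glucose-6-phosphate transporter of the endoplasmic reticulum, was called at its dim probe (0.68, adjusted p = 0.0403) and not at its bright one (0.12, adjusted p = 0.468). C030014I23Rik gave 0.59 (adjusted p = 0.0484), BC049987 gave 0.81 (adjusted p = 0.0495) and an unnamed transcript 1373 kb from Jaml gave 0.42 (adjusted p = 0.0349). Leaving out 1 array ended each of these 5 calls in 4 to 10 of 12 fits, with adjusted p of 0.0621 to 0.117 at the highest. All but the Cep164 call were also lost with no filter on dim probes, and those of Slc37a4, C030014I23Rik and BC049987 under quantile normalization and in the authors' deposited table. The Slc37a4 value was 0.41 under normexp (adjusted p = 0.0156). The unnamed transcript 2022 kb from Jaml, whose probe is printed above, read -6.01, -6.18 and -5.94 in KO sham kidneys, against -7.37, -6.54 and -8.10 in WT sham kidneys. After IRI they were -5.59, -5.96 and -5.79 in KO, against -6.62, -6.56 and -7.32 in WT. It was well above background on 1 KO sham array, 3 KO IRI arrays and no WT array, so no fold is given. This transcript thus entered the fit through KO arrays only, so its call does not by itself show a higher level in KO. It passed on the mean (adjusted p = 0.0133), a call that held in all 12 fits with 1 array left out and was lost under normexp (adjusted p = 0.117).

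The other genes within 300 kb gave no call in sham, in IRI or on the mean. Scn2b, another sodium channel beta subunit and the closest kept neighbour at 22.46 kb, had a log2 fold change of -0.83 in sham (limma adjusted p = 0.167) and 0.16 in IRI. The 3 Mpzl3 probes gave 0.77, -0.02 and -0.03 in sham and -0.45, -0.19 and 0.09 in IRI. Ube4a, a ubiquitin chain ligase, had 4 probes at 0.14 to 0.49 in sham and -0.52 to 0.58 in IRI. The histone H3 lysine methyltransferase Kmt2a had 2 probes in this band, at -0.21 and 0.18 in sham and 0.29 and 0.47 in IRI. Probes of the membrane serine proteases Tmprss4 and Tmprss13 gave 0.43, 0.40 and -0.10 in sham, and 0.01, 0.07 and 0.93 in IRI (adjusted p of the last = 0.129). Fxyd6, a regulator of the sodium pump, gave 0.28 in sham and 0.40 in IRI. BC049352 gave 0.37 and 0.07 in sham and 0.74 and 0.42 in IRI, the last of which was -0.99 with array weights, and Gm30816 gave 0.00 in sham and -1.19 in IRI (adjusted p = 0.123). Gm10684, Lncbate3 and 1 Fxyd6 probe did not enter the fit.

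Across the window, 16 of 142 probes (11.3%) had KO and WT arrays that did not overlap in the same direction in both operations, 12 higher and 4 lower in KO, against 9.61% of all probes (6.21% higher and 3.41% lower). The 4 lower ones were both Il10ra probes, BC056208 and 1 Kmt2a probe at 302.7 kb (-0.22 in sham and -0.45 in IRI, not called). BC056208 was kept through WT arrays only. The unnamed transcript whose probe is printed above, among the 12 higher, was kept through KO arrays only. The sign of the log2 fold change was the same in sham and IRI for 93 probes (65.5%), against 65.0% of all probes. Over the 142 probes the sham and IRI fold changes correlated at r = 0.557 (Spearman's rho 0.501), and over all 39450 probes at r = 0.466 (rho 0.432). The probes of each operation share their arrays, so these are descriptions of the arrays.

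**Figure D4:**
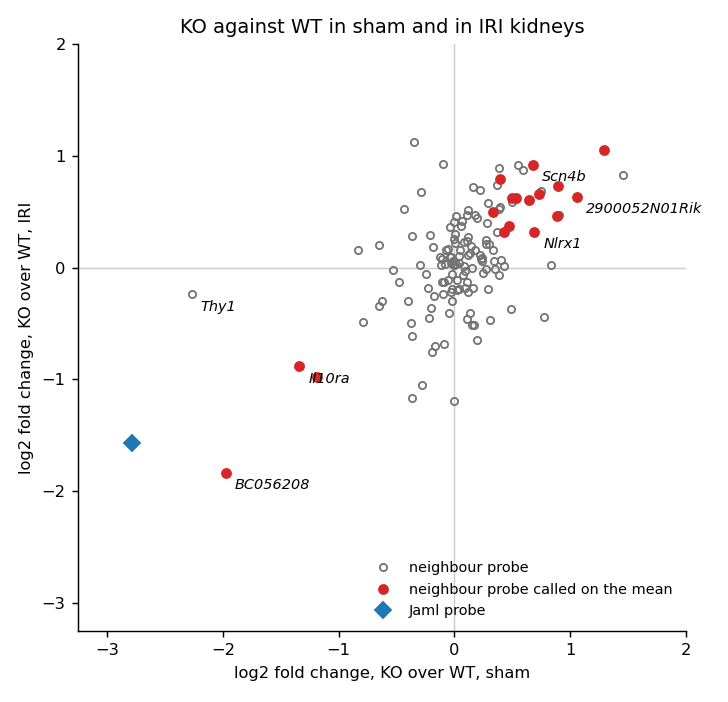
Log2 fold change of KO over WT in IRI kidneys (vertical axis) against that in sham kidneys (horizontal axis) for the 142 kept neighbour probes, with those called on the mean of both in red and the Jaml probe as a diamond. Il10ra and BC056208 lie low on both axes, and the 14 probes called higher lie in the upper right. BC056208 was not well above background on KO arrays, so its place is not a measured fold. Nor is that of the unnamed transcript whose probe is printed above, among the 14, which was not well above background on WT arrays.

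Sorted by role, the counts below stand against 6.54% of all probes called in sham, 1.23% in IRI and 11.8% on the mean. Of 17 probes of 9 chromatin, transcription and RNA genes (among them Kmt2a, the histone H2ax and the RNA helicase Ddx6), 0 were called between KO and WT in sham, in IRI or on the mean, with sham medians of -0.02 against 0.11 over all probes. Of 15 probes of 5 ubiquitin enzymes (Cbl, Ube4a, Rnf26, Rnf214, Usp2) and of 7 probes of 5 genes of proteases and the brush-border enzyme Treh, also 0 were called in these 3 comparisons. Of 23 probes of 7 secretory pathway and lysosome genes, which include the chaperone Hyou1 and the coat protein Arcn1, 1 was called on the mean (4.35%, the dim Slc37a4 probe). Of 12 probes of 5 cytoskeleton and cilium genes, 2 were called in sham (16.7%) and 3 on the mean (25%), all higher in KO (Ift46 and Cep164). Of 10 probes of 8 adhesion and channel genes, 0 were called in sham or IRI and 2 on the mean (20%), Mpzl2 and Scn4b. Of 5 probes of 4 metabolism genes, the dim Slc37a4 probe, which stands in both lists, was the one called on the mean (20%). Of 7 probes of 4 immune receptors and regulators, 3 were called in sham and the same 3 on the mean (42.9% each), 1 of Nlrx1 higher and 2 of Il10ra lower. The shares above the whole array thus rest on 1 to 3 probes each. Of 5 probes of 3 apolipoproteins, 0 were called between KO and WT, with medians of -0.36 in sham and -0.30 in IRI. These role lists were drawn up with earlier results of these arrays known.

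Some neighbours of Jaml were called between IRI and sham in both genotypes, at total shares near those over the whole array. In KO kidneys 9 of 142 probes (6.34%) in 8 genes passed between IRI and sham, against 5.18% of all probes, 6 higher and 3 lower after IRI, where 1.79% of all probes were higher and 3.4% lower. In WT kidneys 12 probes (8.45%) in 9 genes passed, against 10.4% of all probes, 5 higher and 7 lower, where 5.32% of all probes were higher and 5.06% lower. Leaving out 1 array took the KO count to 2 (1.41%) without any 1 KO sham array, against 1.34% to 2.31% of all probes. It was 4 or 5 (2.82% or 3.52%) without any 1 KO IRI array, against 2.21% to 3.11% of all probes. Without WT IRI 1 it was 19 (13.4%), against 10.9%. The WT count was 5 (3.52%) without WT sham 1 or WT sham 2, against 2.6% and 2.35% of all probes. It was 6 (4.23%) without WT IRI 3, against 3.71%, and 19 (13.4%) without WT IRI 2, against 17.2%. The KO calls split into 8 higher and 2 lower under quantile normalization and 6 higher and 7 lower under normexp background correction. The totals were 7.04% of the neighbours, against 5.49% of all probes, and 9.15%, against 6.91%. IRI and sham arrays did not overlap in 53 probes (37.3%) in KO, against 34.0% of all probes, and in 45 (31.7%) in WT, against 31.8%.

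Of the apolipoprotein genes 1122 to 1136 kb from the Jaml probe, Apoa4 and Apoc3 were higher after IRI in KO and in WT kidneys and Apoa1 in KO kidneys. These genes encode protein parts of lipoproteins and are known chiefly from liver and intestine. Apoa4, a lipid transport protein, read 1.26, 1.98 and 1.47 in KO IRI kidneys, against 0.53, -0.13 and 0.58 in KO sham kidneys. It read 2.15, 2.45 and 2.40 in WT IRI kidneys, against 0.24, 0.27 and 1.04 in WT sham kidneys. No IRI array overlapped with the sham arrays of its genotype, and the log2 fold change was 1.25 ± 0.28 in KO (SE, limma adjusted p = 0.0308) and 1.81 ± 0.28 in WT (adjusted p = 0.00604). The WT call held in all 12 fits with 1 array left out, and the KO call was lost in 5, with adjusted p up to 0.102. Apoc3, an inhibitor of lipoprotein lipase, read 3.31, 3.89 and 2.95 in KO IRI kidneys, against 2.04, 1.00 and 1.95 in KO sham kidneys. It read 3.14, 4.02 and 4.03 in WT IRI kidneys, against 2.02, 2.00 and 2.91 in WT sham kidneys. This gave 1.72 ± 0.39 in KO (adjusted p = 0.0322) and 1.42 ± 0.39 in WT (adjusted p = 0.0442). A second Apoc3 probe gave 1.72 and 1.39 (adjusted p = 0.0322 and 0.0474), and the remaining probe gave -0.23 and -0.13 and was not called. The calls of both Apoc3 probes were lost in 6 fits in KO and 8 in WT, with adjusted p up to 0.154. The WT calls were also lost with no filter on dim probes and when only the WT arrays were fitted (adjusted p up to 0.118).

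Apoa1, the main protein of high-density lipoprotein, was dimmer, at -3.64, -3.14 and -4.18 in KO IRI kidneys, against -4.90, -5.76 and -5.66 in KO sham kidneys. It read -3.91, -4.12 and -3.77 in WT IRI kidneys, against -5.25, -5.46 and -4.53 in WT sham kidneys. The IRI arrays were above the sham arrays in both genotypes. Its log2 fold change was 1.79 ± 0.33 in KO (SE, limma adjusted p = 0.015), lost without KO sham 2 or KO sham 3 (adjusted p up to 0.0671) and under normexp, where it was 0.53 (adjusted p = 0.078), and 1.15 ± 0.33 in WT (adjusted p = 0.0513). Gm10680, whose probe lies on the opposite strand within 1 kb of the Apoa4 probe, was well above background on 2 KO IRI and 3 WT IRI arrays and on no sham array. Gm10680 thus entered the fit through IRI arrays only, so its calls do not by themselves show a rise. It passed in KO kidneys (adjusted p = 0.0171) with no measured fold, a call lost in 4 of 12 fits with adjusted p up to 0.0655, and under normexp (adjusted p = 0.964). Its signal in WT IRI kidneys was at least 2.94-fold that in WT sham kidneys on this scale (adjusted p = 0.00342), a call that held in all 12. The bound sets the mean of the WT IRI arrays against, per WT sham array, the higher of the probe's own level and the lowest level among probes well above background. Under normexp the WT difference was 0.45 on the log2 scale (adjusted p = 0.043). Of the liver markers Alb, Apob and Ttr, 1 of 3 was lower after IRI in KO and 0 of 3 were called in WT. No interaction of genotype and injury passed for these genes.

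Usp2, a deubiquitinating enzyme whose transcript is known to follow the circadian clock, was lower after IRI in WT kidneys. Its brighter probe read 3.10, 3.77 and 3.17 in KO IRI kidneys, against 4.29, 3.79 and 4.21 in KO sham kidneys. It read 2.85, 3.05 and 2.74 in WT IRI kidneys, against 4.11, 4.22 and 3.90 in WT sham kidneys. The log2 fold change was -0.75 in KO (limma adjusted p = 0.0643) and -1.20 ± 0.20 in WT (SE, adjusted p = 0.00906). The second probe gave -0.80 in KO (adjusted p = 0.147) and -1.16 in WT (adjusted p = 0.031). Gm38444, read from the opposite strand of the same place, was -0.85 in KO (adjusted p = 0.0258) and -1.25 ± 0.18 in WT (adjusted p = 0.00468). Ttc36 was lower after IRI in both genotypes, by the values given above, with -1.61 ± 0.20 in KO (adjusted p = 0.00379) and -1.53 ± 0.20 in WT (adjusted p = 0.00311). The WT calls of Ttc36, Gm38444 and the brighter Usp2 probe and the KO call of Ttc36 held in all 12 fits with 1 array left out. The KO call of Gm38444 was lost in 4 fits (adjusted p up to 0.106) and the WT call of the second Usp2 probe in 5 (adjusted p up to 0.108), as well as when only the WT arrays were fitted (adjusted p = 0.0571). Of 6 proximal tubule markers, 4 were lower after IRI in KO and 3 in WT, and the part of tubule content in these differences was not tested.

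**Figure D5:**
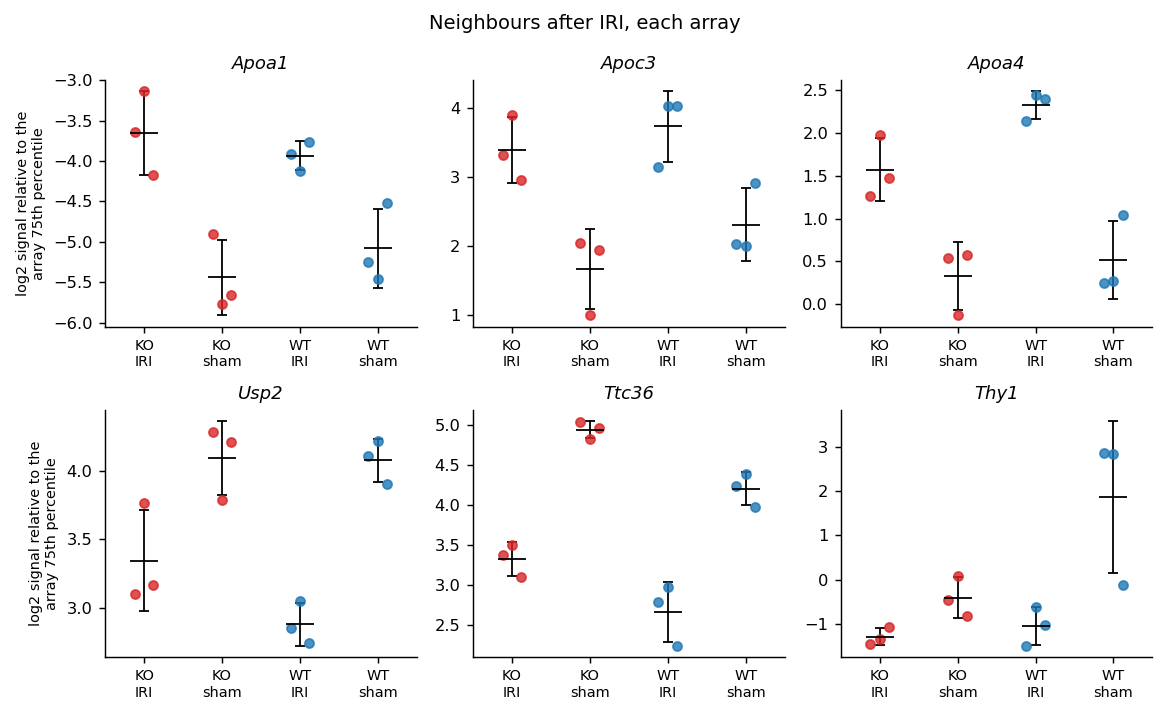
Level of 6 neighbours on each array (vertical axis, log2 signal relative to the array's 75th percentile) in KO IRI, KO sham, WT IRI and WT sham kidneys (horizontal axis). Points are arrays, red for KO and blue for WT, and bars are the mean ± SD of 3. The IRI arrays of Apoa1, Apoc3 and Apoa4 lie above the sham arrays of the same genotype and those of Usp2 and Ttc36 below them.

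Thy1, a surface glycoprotein of T cells and some stromal cells, had the largest KO against WT difference of the kept neighbour probes in sham kidneys, which did not pass. It read -0.47, 0.08 and -0.83 in KO sham kidneys, against 2.87, 2.85 and -0.12 in WT sham kidneys. It read -1.45, -1.35 and -1.07 in KO IRI kidneys, against -1.49, -0.63 and -1.03 in WT IRI kidneys. WT sham 3 lay with the KO sham arrays and away from the other WT sham arrays. The KO minus WT difference in sham was -2.27 (limma adjusted p = 0.0722), and the IRI minus sham difference was -0.89 in KO (adjusted p = 0.514) and -2.92 ± 0.67 in WT (SE, adjusted p = 0.0246). The WT call was lost without WT sham 1, WT sham 2, WT IRI 1 or WT IRI 3, with adjusted p up to 0.0938, and when only the WT arrays were fitted (adjusted p = 0.132). Of the 10 T and NK cell markers, 0 were lower after IRI in KO and 9 in WT (medians -1.35 and -3.35). The T and NK marker level was 3.36, 3.38 and 0.58 on WT sham arrays 1, 2 and 3, so WT sham 3 was the lowest there too. Other leukocyte markers moved otherwise. Of 3 neutrophil genes, 2 were higher after IRI in KO and 3 in WT (medians 3.84 and 3.59). Of 4 macrophage genes, 1 was higher and 1 lower after IRI in each genotype. Of 2 measured B cell genes, 2 were lower after IRI in KO and 0 were called in WT. Il10ra gave -0.48 (adjusted p = 0.319) at the brighter probe and -0.67 (adjusted p = 0.155) at the other after IRI in KO, neither called. It was lower after IRI in WT, at -0.93 ± 0.24 (adjusted p = 0.0389) and -0.88 (adjusted p = 0.0461), calls lost in 9 and 10 of 12 fits with 1 array left out (adjusted p up to 0.126), with no filter on dim probes and when only the WT arrays were fitted. The dimmer probe's WT call was also lost under normexp, at -0.42 (adjusted p = 0.0793). These WT comparisons use the same WT sham arrays as the KO against WT comparison in sham kidneys. The part of leukocyte content in them was not tested.

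The remaining injury calls were single probes. Nectin1, an adhesion molecule of epithelial junctions, read 4.76, 4.78 and 4.15 in KO IRI kidneys, against 3.13, 3.07 and 3.02 in KO sham kidneys, a log2 fold change of 1.49 ± 0.29 (SE, limma adjusted p = 0.018). In WT it read 4.26, 3.93 and 3.93 after IRI, against 3.19, 3.11 and 4.24 after sham operation, with 0.53 (adjusted p = 0.256). The interaction for Nectin1 did not pass (0.96 ± 0.40, adjusted p = 0.494), so its injury responses were not shown to differ between genotypes. Tmprss4 was lower after IRI in KO at 1 of 2 probes (-1.03 ± 0.25, adjusted p = 0.0406), with the other at -1.03 (adjusted p = 0.0672). Trappc4, a subunit of a vesicle tethering complex, gave 0.10 in KO (adjusted p = 0.678) and was higher after IRI in WT (0.44 ± 0.11, adjusted p = 0.0369). Leaving out 1 array ended the Nectin1 call in 5 of 12 fits, the Tmprss4 call in 9 and the Trappc4 call in 8, with adjusted p up to 0.0732, 0.135 and 0.13. The Tmprss4 and Trappc4 calls were also lost with no filter on dim probes, the first of them also under quantile normalization and in the authors' deposited table, and that of Trappc4 when only the WT arrays were fitted (adjusted p up to 0.168). Under normexp the Tmprss4 value was -0.64 (adjusted p = 0.0138).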

How the data were processed

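Kidney RNA of male mice was measured on 12 one-colour Agilent arrays, 3 per group. Per the file headers, Agilent Feature Extraction 10.7.1.1 made the deposited intensity values, a processed signal per spot after background subtraction with spatial and multiplicative detrending, annotated on mm9. The authors' deposited log2 table was used as an alternative. Per the submitters' processing notes limma was among their tools, with no step stated. Probe placement was read from the scanner files.

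From these, log2 processed signal minus each array's 75th percentile was computed. Control spots and outlier spots were left out and spots of a probe averaged. Probes well above background on at least 3 of 12 arrays were kept, 39450 of 56605. limma 3.58.1 in R 4.3.3 fitted 1 coefficient per group over all 12 arrays (8 residual degrees of freedom), with two-sided tests, Benjamini-Hochberg adjustment over all kept probes and a threshold of 0.05. Different probes of a gene were tested separately. The fit was tested on simulated data. Python 3.11.15, pandas 2.3.3 and numpy 2.4.6 prepared the tables. Current symbols came from RefSeq accessions for 108 of 171 member probes, and 63 kept the names of the files. Nothing says beyond "independent samples" that arrays came from separate animals, so p-values measure the spread between these samples. The number of arrays limits the precision.

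The members, the role lists and the markers were chosen with earlier results of these data known. Named are all members called between KO and WT whose arrays do not overlap, those with a symbol within 300 kb of the Jaml probe, up to 6 rises and 6 falls after injury per genotype, and the role lists. A rise or fall of a probe not well above background on every array of a group is given as a bound or without a fold. The alternatives tried are named in the closing section. The sources give 2 clamp times, 40 and 30 minutes.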

Additional observations from a re-analysis of the deposited data

Results flagged for a closer look

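LOC102643243, a locus known by its number only, read by 1 probe 1369 kb from the Jaml probe (chr9:43546951-43547010, minus strand), stood out because its KO and WT arrays did not overlap in either operation, lower in KO sham and higher in KO IRI. It read -1.68, -1.61 and -1.87 in KO sham kidneys, against -1.58, -1.51 and -1.02 in WT sham kidneys, a log2 fold change of -0.35 ± 0.31 (SE, limma adjusted p = 0.57). In IRI kidneys it read -0.44, -0.44 and -0.76 in KO, against -2.45, -1.02 and -1.52 in WT, a log2 fold change of 1.12 ± 0.31 (adjusted p = 0.106). The interaction was 1.47 ± 0.43 with an adjusted p of 0.375, so the difference between the operations did not pass. This was 1 of 142 neighbour probes, against 0.854% of all probes with groups apart in opposite directions.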

How the results depend on the processing

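None of the 47 calls of named probes, Jaml included, changed direction under any alternative run. Of 607 values of named probes that were not called, 217 crossed 0 under some alternative, among them Tmprss4 in IRI (0.01, range -0.25 to 0.21). BC049352 in IRI (0.42) was -0.99 and past the threshold with array weights (adjusted p = 0.0471). Across 51 results of named genes, 775 values kept their side of the threshold, 253 lost it, 4 gained it and 1, the uncalled IRI difference of Jaml, moved to -0.81 without WT IRI 1. The number of neighbour probes called was 7 in sham, 0 in IRI, 17 on the mean, 0 for the interaction, 9 for KO IRI against sham and 12 for WT IRI against sham. With array weights it was 46, 47, 65, 23, 35 and 86, but the weights did not converge and WT IRI 3 took a weight of 26.6. Those were 32.4%, 33.1%, 45.8%, 16.2%, 24.6% and 60.6% of the neighbour probes. Of all probes, the same fit called 39.3%, 29.6%, 45.1%, 21.5%, 23.3% and 59.6%. Fitting only the arrays compared gave 18 in sham (12.7%, against 12.6% of all probes). It gave 15 for KO injury (10.6%, against 7.82%) and 5 for WT injury (3.52%, against 1.29%). The replicate block gave 4 in sham (2.82%, against 5.0% of all probes) and 6 for WT injury (4.23%, against 7.93%). It moved the other counts of calls by no more than 1.5 times, and ended 16 of the 47 calls. Replicate numbers did not pair the arrays (correlations of same-numbered deviations -0.287 to 0.135). Without a filter on dim probes WT injury gave 7 (4.09%, against 5.1% of all probes). Of the 47 calls, 13 were lost without that filter, 8 under normexp, 6 each under quantile normalization and in the authors' deposited table and 7 when only the arrays compared were fitted. Normexp moved 14 of the called values by over 1.5 times. Normexp gave 13 for KO injury (9.15%, against 6.91% of all probes) and 18 for WT injury (12.7%, against 11.6%). Quantile normalization and the authors' deposited table gave 10 (7.04%, against 5.49%) and 16 (11.3%, against 11.5%). Leaving out 1 array gave 0 to 18 in sham, 0 to 3 in IRI, 10 to 20 on the mean, 0 to 1 for the interaction, 2 to 19 for KO injury and 5 to 19 for WT injury. The share over all probes moved as well, from 1.64% to 13.6% in sham, 0.236% to 2.39% in IRI and 6.24% to 15.7% on the mean. It was 0.0076% to 0.37% for the interaction, 1.34% to 10.9% for KO injury and 2.35% to 17.2% for WT injury. The arrays behind the extremes are named beside each count. The cause of these changes was not tested, beyond the smaller number of arrays in a fit. A slide block could not be run, since each slide holds 1 genotype. Dim probes limit BC056208, Gm10680 and the transcript at 2022 kb.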

Other observations

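Probes of the same neighbouring gene often disagreed by as much as the differences between genotypes. Over the 32 genes with more than 1 kept probe, the range between probes in the sham KO minus WT log2 fold change was widest for Ift46 (0.93), Apoc3 (0.87), Hyou1 (0.83) and Mpzl3 (0.80). It was narrow for Il10ra (0.15), Usp2 (0.09) and C2cd2l (0.05). In IRI kidneys the widest range was that of Sidt2, a lysosomal membrane protein, whose 4 probes differed by 1.49 in log2 fold change between KO and WT.

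D630033O11Rik, 1827 kb from the Jaml probe, had the largest positive sham difference of the kept neighbours without a call. It read -3.61, -3.31 and -2.41 in KO sham kidneys, against -3.96, -4.18 and -5.56 in WT sham kidneys, a log2 fold change of 1.46 ± 0.48 (SE, limma adjusted p = 0.102). The KO sham arrays lay above the WT sham arrays and varied by more than those of most called genes. It was chosen after its values were seen.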
